A study of Mus musculus with 51 samples.

Results

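E1 enzymes catalyze the first step by which ubiquitin or a ubiquitin-like protein is attached to a substrate. The 8 E1 genes described here were chosen by name, as the rows of the count and TPM tables whose gene is Uba1, Uba6, Uba2, Uba3, Sae1, Nae1, Atg7 or Mocs3, and make up 8 of 40077 gene rows. All 8 passed the filter on low counts in each of 12 comparisons. Bulk RNA was sequenced from 35 tumors and from 16 cultures of Myc-CaP cells. In the tumors, B16-BL6 (a mouse melanoma line grown in C57BL/6 mice) gave 3 controls with a nontargeting guide (sgNC) and 4 tumors depleted of Uba1 (sgUba1), and Myc-CaP (a mouse prostate cancer line grown in male FVB mice) gave 3 sgNC and 7 sgUba1 tumors. Further Myc-CaP tumors carried an empty vector (EV, 3 tumors) or Uba1 overexpression (OE, 4 tumors), or came from mice given vehicle (6 tumors) or the UBA1 inhibitor TAK-243 (5 tumors, 25 mg/kg into a vein, 2 times a week). All tumors were subcutaneous, in mice of 6 to 8 weeks at the start. The cultured cells were either nontargeting control (NC) or sgUba1 cells in PBS, or wild-type cells left as controls or given TAK-243 (50 nmol/L). Each of these 4 conditions was also sequenced with IFN-γ (1 ng/mL). Both agents were given for 18 hours, and each group had 2 libraries. The sgUba1 lines were sublines grown from single cells, OE was driven by the CMV promoter from a lentivirus, and the labels do not say which guide or subline a library carries. The labels number the tumors singly and the methods call the samples distinct. Neither ties a tumor to an animal or a cell library to a culture of its own. The methods also state that cells were injected into both flanks, so 2 tumors of a group may come from 1 mouse. The tests nonetheless take each tumor as independent. The p-values measure the spread between these libraries, which in the cells may be technical. In bulk RNA, fewer cells of a type and less RNA per cell cannot be told apart.

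Each E1 activates its modifier with ATP, holds it as a thioester and passes it to E2 enzymes. UBA1 and UBA6 are the E1 enzymes for ubiquitin, and UBA6 hands ubiquitin to its own E2, UBE2Z, and can also activate FAT10. UBA2 and SAE1 together form the E1 for SUMO, UBA3 and NAE1 together form the E1 for NEDD8, ATG7 activates ATG12 and the LC3 and GABARAP proteins in autophagy, and MOCS3 activates URM1 and MOCS2A. TAK-243 binds in the ATP pocket of UBA1 as an adduct with ubiquitin, and therefore acts on the protein, not on its transcript.

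The guides that were used to deplete Uba1 are shown because they set what the sgUba1 groups are. They are printed 5′ to 3′ with the adjacent genomic PAM in capitals, and the nontargeting control has no PAM.
sgUba1 #1: taccaatgtcctcctcccgaAGG
sgUba1 #2: tagccgtggtatcaagctagTGG
Nontargeting control: acgtgtaaggcgaacgcctt
Guide #1 lies on the minus strand of exon 5 of 26, at chrX:20669133-20669155 of GRCm38, and its site begins at codon 117 of the 1058 codons of Uba1. Guide #2 lies on the plus strand of exon 6, at chrX:20670263-20670285, and begins at codon 180. Both sites are in coding sequence. Among GENCODE M21 transcripts, each guide matched exactly, with an NGG PAM, only in Uba1, and the nearest match in Uba1y, the homolog on the Y chromosome, had 4 mismatches. The nontargeting control matched 0 transcripts. Each context is the surrounding exon sequence read in the direction of the guide, so that of guide #1 is the reverse complement of the transcript, and the target with its PAM is in capitals.
Context of guide #1: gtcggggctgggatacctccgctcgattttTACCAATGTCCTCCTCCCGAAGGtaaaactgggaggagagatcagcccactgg
Context of guide #2: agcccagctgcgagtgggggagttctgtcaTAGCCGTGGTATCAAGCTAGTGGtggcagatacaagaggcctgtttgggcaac
The values below are RNA levels of Uba1, and neither the edited sequence nor the protein was analysed here.

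Total counts ran from 8651963 to 35693092 in tumors and from 12860844 to 38032284 in cells, and were lowest in the EV tumors. The 6 melanocyte markers summed to 9946 to 11948 TPM in B16-BL6 tumors and to at most 16.3 TPM in Myc-CaP libraries. Epithelial markers summed to 163 to 456 TPM in Myc-CaP tumors, 63.0 to 139 TPM in Myc-CaP cells and at most 1.02 TPM in B16-BL6 tumors, whose label for cell type is nonetheless epithelial. The 3 prostate markers summed to at least 194 TPM in each Myc-CaP library.

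The 8 genes were expressed at very different levels, on the TPM scale, in which transcripts are counted per length and scaled to the same total in every library, so that genes can be compared. Uba1 had the highest mean TPM in 13 of 16 groups and Sae1 in the other 3, which were the sgUba1 tumors of B16-BL6 and the sgUba1 cells with and without IFN-γ. Across tumors, Uba1 ran from 80.7 to 283 TPM with a median of 131 TPM. Behind it came the 2 SUMO E1 subunits and Uba3, whose order varied: the ranges of Sae1 and Uba2 overlapped in 7 of the 14 groups where they were neighbours in the order, and those of Sae1 and Uba3 in 4 of 8. Nae1 ranked 5 or 6 and Atg7 ranked 5 to 7, with ranges that overlapped in 2 of the 8 groups where they were neighbours. Uba6 ranked 6 or 7, at 12.6 to 30.6 TPM over all libraries, and its range overlapped that of Atg7 in 5 of the 14 groups where they were neighbours. Mocs3 was last in 16 of 16 groups, at 0.369 to 4.55 TPM, and its 4 to 167 counts per library make its fold changes the least precise. The range of Mocs3 overlapped that of no neighbour in the order.

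**Figure D1:**
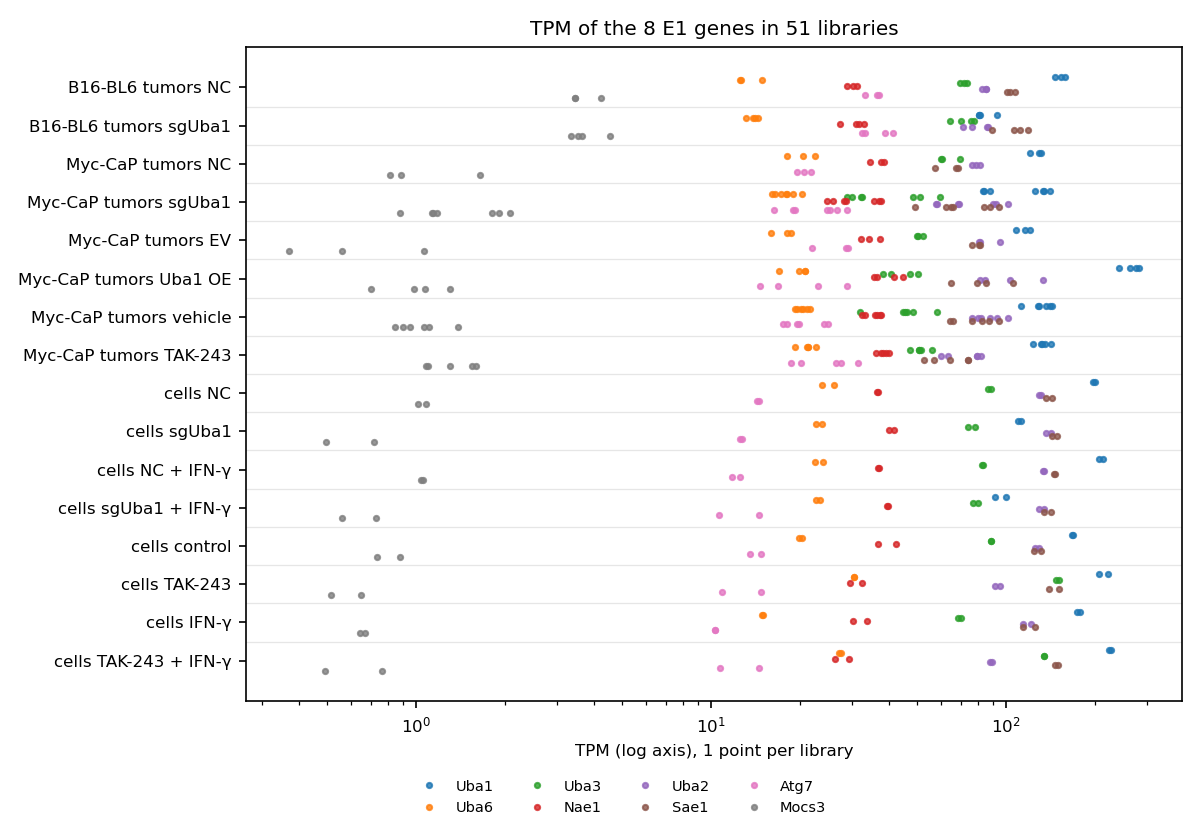
TPM of each E1 gene (log axis) in every library of the 16 groups, with a point for each library. Uba1 leads in 13 of 16 groups, Sae1 in 3, and Mocs3 is lowest throughout.

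The B16-BL6 and Myc-CaP controls differed in these levels. The levels are compared here as TPM and without a test because each experiment was fitted by itself. Atg7 was at 35.5 ± 2.13 TPM (SD, n = 3) in B16-BL6 sgNC tumors and at 20.6 ± 1.11 TPM (SD, n = 3) in Myc-CaP sgNC tumors. For Uba6 the TPM were 13.3 ± 1.29 and 20.4 ± 2.19, and for Mocs3 they were 3.71 ± 0.448 and 1.11 ± 0.457. Thus B16-BL6 stood above Myc-CaP for Atg7 and Mocs3 and below it for Uba6. It also stood above Myc-CaP for Sae1 (104 ± 3.19 and 64.6 ± 6.23 TPM), Uba1 (152 ± 6.07 and 127 ± 5.46 TPM), Uba2 and Uba3. Nae1 was lower in B16-BL6. None of the E1 genes overlapped between the 3 libraries of each line, and the share of all genes without such overlap was not computed. In cultured NC cells, Sae1 stood at 140 ± 5.29 TPM and Uba2 at 130 ± 1.49 TPM (SD, n = 2), against 64.6 ± 6.23 and 79.1 ± 2.42 TPM in Myc-CaP sgNC tumors. The summed TPM of 20 proliferation genes was also higher in the cells, at 3777 to 3867 against 697 to 1399, and its part in the levels of Sae1 and Uba2 was not tested.

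The share of Uba6 in the summed TPM of the 2 ubiquitin E1 genes shows how far the alternative enzyme was represented. In B16-BL6 it was 8.05% ± 0.731 (SD, n = 3) in sgNC tumors and 14.2% ± 0.863 (SD, n = 4) in sgUba1 tumors. The share moved with Uba1, since Uba6 itself was at 13.3 ± 1.29 TPM in the former and 13.9 ± 0.538 TPM in the latter. In Myc-CaP cells the mean share was 11.1% in NC and 17.4% in sgUba1 cells, and with IFN-γ 9.95% and 19.4%. In EV tumors it was 13.3% ± 1.51 (SD, n = 3), and in OE tumors 6.93% ± 0.936 (SD, n = 4). Myc-CaP sgUba1 tumors spanned 11.4% to 19.4% around their controls of 12.2% to 14.8%. In drug-control cells the mean share was 10.7%, and with TAK-243 12.5%, and with IFN-γ it was 7.84% without the drug and 10.8% with it. Mean TPM of Uba6 in these 4 groups were 20.1, 30.5, 14.9 and 27.3, and those of Uba1 were 168, 213, 176 and 225. Both genes thus rose with TAK-243, and the share rose because Uba6 rose by more in proportion. With IFN-γ alone Uba6 was lower and Uba1 was not. The size of that fall is relative to the TPM scale, on which the median of all genes shifted by −0.14 (log2) in drug-control cells given IFN-γ. In vehicle tumors the share was 13.4% ± 1.06 (SD, n = 6) and in TAK-243 tumors 13.8% ± 1.10 (SD, n = 5).

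Depletion of Uba1 in B16-BL6 tumors lowered Uba1 RNA and left the other 7 genes without a call. Uba1 stood at 409.5, 455 and 414 CPM (counts scaled to library size with TMM factors, not to gene length) in the sgNC tumors numbered 1, 2 and 4, and at 208, 220.2, 228 and 247 CPM in the sgUba1 tumors numbered 1 to 4. Every sgUba1 tumor lay below every control. The log2 fold change was −0.92 (SE 0.074), or 0.530 times the control level with a 95% interval from 0.473 to 0.595, with an adjusted p of 0.000294 by edgeR (quasi-likelihood test, Benjamini-Hochberg). Of the 8 E1 genes 1 was called, against 0.724% of the 17539 genes tested. Summed TPM of 7 macrophage markers was 119 to 205 in controls and 197 to 264 in sgUba1 tumors, with a median log2 fold change of 0.57. Of these markers edgeR called 0 of 7, with 5 at an unadjusted p under 0.05, and DESeq2 called 4, and their part in the E1 values was not tested.

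No rise of Uba6 was detected in these tumors. Its CPM were 43.2, 44.1 and 48.2 in controls and 46.2, 42.9, 43.3 and 44.7 in sgUba1 tumors, which overlapped, and the log2 fold change of −0.028 had a 95% interval from −0.18 to 0.12. The upper bound is a 1.09-fold higher level. Log2 fold changes of the SUMO E1 genes were −0.14 for Uba2 (interval −0.30 to 0.031) and −0.018 for Sae1 (interval −0.21 to 0.17). Those of the NEDD8 E1 genes were −0.055 for Uba3 (interval −0.19 to 0.080) and −0.027 for Nae1 (interval −0.18 to 0.13). Atg7 had a log2 fold change of −0.0025 (interval −0.15 to 0.14) and Mocs3 one of −0.023 (interval −0.36 to 0.32). The intervals of Uba6, Uba3, Nae1 and Atg7 lay between −0.19 and 0.14, and that of Mocs3 was the widest. On the log2(TPM + 1) scale the 6 genes other than Uba1 and Uba2 had values above 0, the largest 0.057 for Uba6, and none was called.

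In Myc-CaP the 7 tumors labelled sgUba1 did not share a single level of Uba1. The sgNC tumors stood at 319.6, 325 and 337 CPM. The sgUba1 tumors numbered 1 to 3 stood at 197, 202 and 211 CPM, below every control, and those numbered 4 to 7 at 373, 361, 368 and 383 CPM, above every control. Over the 7 tumors as labelled the log2 fold change was −0.13 (SE 0.244, edgeR quasi-likelihood test with Benjamini-Hochberg adjusted p 0.787). The transcript therefore does not show a depletion in libraries labelled sgUba1 4 to 7. The study assessed depletion in its lines by Sanger sequencing and immunoblot and reports partial loss. Neither was analysed here, so the RNA does not settle the state of the protein. Over all genes, the chi-square per degree of freedom between the counts of any pair of these libraries was 8.96 to 20.8 within tumors 1 to 3 and within tumors 4 to 7, and 55.9 to 79.4 between a tumor of the former and one of the latter. Values of that size also occurred among the controls, at 76.6 for sgNC tumors 1 and 2 and 56.8 for 2 and 3. For sgNC tumors 1 and 3 it was 12.2. Both control pairs with such values hold sgNC tumor 2, and the source of these differences was not tested. The labels do not separate sgUba1 tumors 1 to 3 from 4 to 7, so tests were made on all 7, and the values are given for tumors 1 to 7 in that order.

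None of the 8 E1 genes was called in Myc-CaP sgUba1 tumors by edgeR, against 3.04% of 16202 genes, and 2 of 8 had an unadjusted p under 0.05, against 23.7% of genes. The 492 calls behind the 3.04% became 10 without sgNC tumor 2 and 692 without sgUba1 tumor 2. DESeq2 called 1, Uba3. Uba3, the catalytic subunit of the NEDD8 E1, stood at 85.2, 92.3 and 83.7 CPM in controls and at 63.9, 77.2, 61.4, 44.8, 44.2, 47.6 and 46.2 CPM in sgUba1 tumors 1 to 7. All 7 lay below all controls, and tumors 4 to 7 were the lowest. The log2 fold change was −0.66 (SE 0.175) with an adjusted p of 0.0642 by edgeR (quasi-likelihood test, Benjamini-Hochberg), 0.0119 by DESeq2 and 0.0191 when all 17 Myc-CaP sgRNA and OE tumors shared a fit. Without sgUba1 tumor 2 the edgeR adjusted p was 0.0250 at a log2 fold change of −0.77.

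Nae1, the other NEDD8 E1 subunit, differed in the same direction by less, without a call. Its CPM were 37.6, 39.5 and 40.4 in controls and 34.2, 37.5, 36.4, 29.8, 33.3, 27.8 and 31.7 in sgUba1 tumors, all 7 below the controls, with a log2 fold change of −0.25 (interval −0.49 to −0.011, edgeR quasi-likelihood Benjamini-Hochberg adjusted p 0.194). Atg7 stood at 16.6 to 16.8 CPM in controls and 18.6, 18.8, 17.8, 17.7, 17.3, 18.6 and 22.4 CPM in sgUba1 tumors, all 7 above the controls, with a log2 fold change of 0.17 (interval −0.072 to 0.41). Among all genes tested, 5.38% lay wholly below and 5.54% wholly above the controls, against 2 and 1 of these 8. Uba6 was at 67.5, 55.6 and 72.4 CPM in controls and 57.5, 54.5, 49.7, 60.6, 59.0, 64.6 and 64.9 CPM in sgUba1 tumors, and its log2 fold change of −0.15 had an interval from −0.40 to 0.097. The upper bound is a 1.07-fold higher level. It covers all 7 tumors, of which 4 to 7 had Uba1 above every control, and so does not bound Uba6 in tumors 1 to 3 alone. For Uba2, Sae1 and Mocs3 the groups overlapped, at log2 fold changes of −0.023, 0.17 and 0.37, values that hide differences among the 7 tumors. Uba2 was at 115.5, 102 and 121 CPM in controls and 120.3, 139, 121, 95.3, 89.98, 107 and 104 CPM in sgUba1 tumors, where tumors 1 to 3 lay above tumors 4 to 7. Sae1 was at 77.1, 58.5 and 74.0 CPM in controls and 82.3, 95.4, 88.6, 78.0, 60.0, 72.9 and 74.9 CPM in sgUba1 tumors, with tumors 1 to 4 above all controls. Mocs3 was at 1.98, 1.01 and 0.965 CPM in controls and 2.03, 1.99, 1.28, 1.45, 1.16, 2.58 and 1.41 CPM in sgUba1 tumors, which did not follow that order. Summed TPM of the proliferation genes was 1271, 697 and 1399 in controls and 1247, 1529, 1318, 928, 459, 711 and 883 in sgUba1 tumors. Of these 20 genes edgeR called 0, and their part in the values of Uba2 and Sae1 was not tested. Summed TPM of 7 macrophage markers was 279.5 to 513 in controls and 469.8 to 854 in sgUba1 tumors, and 3 of the 7 markers were called higher. That of 7 T and NK cell markers was 8.31 to 9.55 in controls and 11.3 to 20.3 in sgUba1 tumors, with no overlap. The part of RNA from these cells in the E1 values was not tested.

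**Figure D2:**
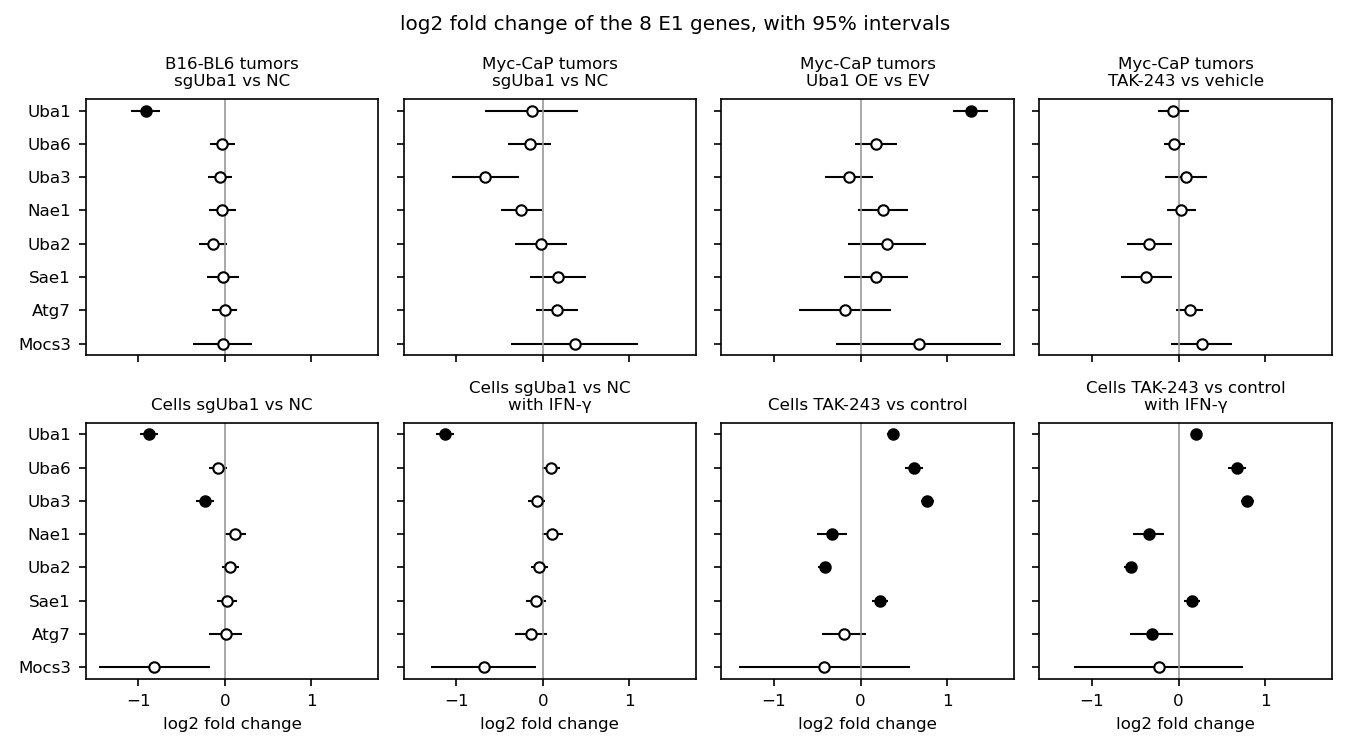
Log2 fold change of each E1 gene (horizontal axis, edgeR) in 4 tumor comparisons (top) and 4 comparisons of cultured cells (bottom), with the 95% interval as a bar and filled points for an adjusted p under 0.05. Uba1 is lower in sgUba1 B16-BL6 tumors and sgUba1 cells and higher in OE tumors, and 6 and 7 of the 8 points are filled in TAK-243 cells.

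Uba3 had as its closest genes by correlation 2 genes on its own chromosome, which led to a look at its neighbours on chromosome 6, chosen after those values were seen. Uba3 lies at chr6:97183670-97205647 of GRCm38. Among the 25 tested genes within 5 Mb on either side, the median log2 fold change in Myc-CaP sgUba1 tumors was −0.39, 18 of 25 were below 0, and 2 were called lower, which is 2 of 25 against 1.89% of all genes placed on the map. Over the 783 tested genes of chromosome 6 the median was −0.021, a value that pools all 7 tumors. For each tumor, the median difference of the 25 neighbours from the mean of the controls was −0.18, −0.075 and −0.10 on the log2 scale in sgUba1 tumors 1 to 3, and −0.53, −0.40, −0.59 and −0.46 in tumors 4 to 7. The 3 controls lay between −0.034 and 0.032. Neighbours of Uba3 were therefore lowest in the 4 tumors in which Uba3 itself was lowest. Other bins of 10 Mb also differed in tumors 4 to 7, in both directions. In the bin centred at −10 Mb from Uba3 they were at −0.27, −0.28, −0.24 and −0.23, against 0.16, 0.24 and 0.14 in tumors 1 to 3. At −60 Mb tumors 4 to 7 were at 0.17, 0.18, 0.22 and 0.36, and at 30 Mb at 0.079, 0.13, 0.16 and 0.27. The 23 neighbours of Uba1 on the X chromosome had a median log2 fold change of 0.023. DNA was not analysed here, and the part of a regional change in the Uba3 value was not tested.

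**Figure D3:**
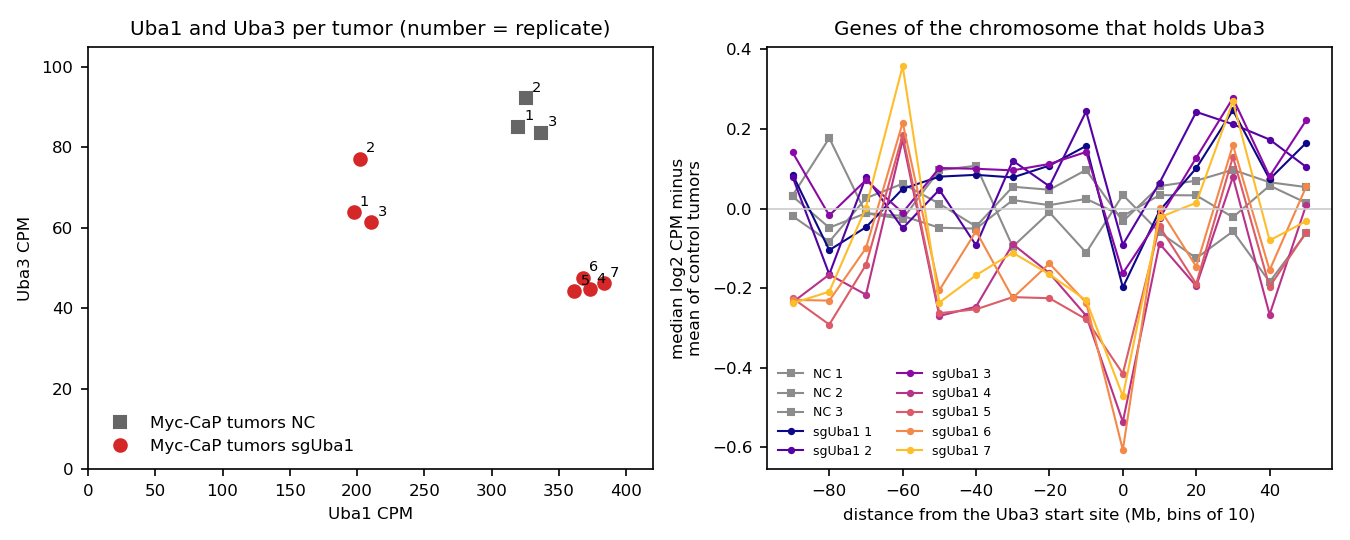
Left, Uba3 CPM against Uba1 CPM for each Myc-CaP sgRNA tumor, numbered by replicate. Right, median log2 difference from the control mean of the genes of chromosome 6 in bins of 10 Mb, by distance from the start of Uba3 and by tumor, where sgUba1 tumors 4 to 7 have their lowest values in the bin around Uba3.

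The same neighbourhood varied among Myc-CaP tumors that carried no guide. Vehicle tumor 1 stood at 45.5 CPM of Uba3, while the other 5 vehicle tumors stood at 62.5 to 77.1 CPM. Its 27 tested neighbours had a median difference of −0.24 from the vehicle mean, and 20 of 27 were below 0. In OE tumors 1 to 4 the median of 22 neighbours was −0.20, −0.24, −0.26 and −0.13. Uba3 itself differed from the EV mean by 0.11, −0.063, −0.37 and −0.27 in these tumors, so it did not follow its neighbours there. In B16-BL6 sgUba1 tumors the medians of 27 neighbours lay between −0.056 and 0.075.

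Overexpression raised Uba1 in Myc-CaP tumors and left the other 7 genes without a call. Uba1 stood at 310.4, 278 and 292 CPM with EV and at 731, 631, 722 and 747 CPM with OE, and the groups did not overlap. The log2 fold change was 1.27 (SE 0.089), a 2.41-fold higher level, with an adjusted p of 0.00503 by edgeR (quasi-likelihood test, Benjamini-Hochberg). This made 1 of the 8 E1 genes called, against 0.0269% of 14853 genes. The call was lost, at adjusted p-values of 0.116 and 0.110 and log2 fold changes of 1.24 and 1.27 by the same edgeR test, when EV tumor 2 or EV tumor 3 was left out, and also, at 0.125, in the fit of 17 tumors. With the replicate block it was lost too, at an adjusted p of 0.103 by edgeR. OE tumor 4 adds nothing to that fit, since no EV tumor shares its number. Summed TPM of 7 T and NK cell markers was 12.3 to 17.4 with EV and 4.01 to 7.94 with OE, with no overlap. The 7 macrophage markers had a median log2 fold change of −0.46, of which edgeR called 0, with 2 at an unadjusted p under 0.05, and DESeq2 called 0. The part of these cells in the E1 values was not tested. Since the construct carried the coding sequence, counts do not separate the transgene from the endogenous gene.

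Uba6 in these tumors was at 53.6, 57.9 and 54.9 CPM with EV and 68.2, 67.7, 53.4 and 62.0 CPM with OE, and the groups overlapped. Its log2 fold change of 0.18 had an interval from −0.064 to 0.42. OE tumor 1 stood apart for several genes, with 216 CPM of Uba2 against 118 to 154 in the other OE tumors and 10.6 CPM of Atg7 against 15.9 to 20.6. Its summed TPM of proliferation genes was 2342 against 1133 to 1691 in the others, and of 5 skeletal muscle markers 388 against 9.25 to 128, and the part of either in its values was not tested. Log2 fold changes over the 4 OE tumors were 0.31 for Uba2, 0.17 for Sae1, −0.14 for Uba3, 0.26 for Nae1, −0.18 for Atg7 and 0.67 for Mocs3, none of them called. Without OE tumor 1 they were 0.097 for Uba2, 0.023 for Sae1, −0.23 for Uba3, 0.17 for Nae1 and −0.016 for Atg7. Mocs3 went to 1.18 without EV tumor 2 and to 0.38 without EV tumor 3.

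TAK-243 given to mice did not change any of the 8 genes past the threshold in Myc-CaP tumors. None was called by edgeR or DESeq2, against 0.145% of 17299 genes by edgeR, and 2 of 8 had an unadjusted p under 0.05, against 15% of genes. Uba1 stood at 311 to 379 CPM (median 352) in 6 vehicle tumors and at 283 to 368 CPM (median 340.4) in 5 TAK-243 tumors, which overlapped, at a log2 fold change of −0.062 (interval −0.24 to 0.12). Uba6 stood at 65.9 to 69.8 CPM (median 66.7) and 63.7 to 68.0 CPM (median 64.2), at −0.048 (interval −0.17 to 0.070). As ratios, the intervals ran from 0.845 to 1.09 times vehicle for Uba1 and from 0.891 to 1.05 times vehicle for Uba6, and 4 of 5 TAK-243 tumors lay below all vehicle tumors for Uba6. On the TPM scale the direction of Uba6 turned, at 20.4 ± 0.911 TPM (SD, n = 6) with vehicle and 21.1 ± 1.23 TPM (SD, n = 5) with TAK-243, which overlapped. Summed TPM of the 7 macrophage markers was 214 to 333 with vehicle and 204 to 567 with TAK-243, where 4 of 5 tumors lay above all vehicle tumors. Of these markers edgeR called 0, with 3 at an unadjusted p under 0.05, and DESeq2 called 1, and their part in the E1 values was not tested.

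The SUMO E1 genes had the largest differences with TAK-243 in tumors, without a call. Uba2 was at 108 to 152 CPM (median 129) with vehicle and 75.0 to 121 CPM (median 107) with TAK-243, a log2 fold change of −0.34 (SE 0.120, edgeR quasi-likelihood Benjamini-Hochberg adjusted p 0.230). Sae1 was at 67.4 to 107 CPM (median 86.7) and 50.2 to 80.5 CPM (median 65.3), a log2 fold change of −0.37 (SE 0.138, adjusted p 0.247 by the same edgeR test). Both groups overlapped, and 3 of the 5 TAK-243 tumors lay below all vehicle tumors for each gene. Proliferation genes moved with them: their summed TPM was 1115 to 1603 with vehicle and 543 to 964 with TAK-243, the median log2 fold change of the 20 genes was −0.76 against 0.013 over all genes, and edgeR called 0 of 20 (19 at an unadjusted p under 0.05) while DESeq2 called 13. In cultured cells this sum was also lower with TAK-243, at 2846 and 2788 TPM against 3425 and 3426 TPM in controls. There Uba2 was lower and Sae1 higher. The part of the proliferation genes in the SUMO E1 values was not tested. Log2 fold changes of the other 4 genes were 0.087 for Uba3, 0.033 for Nae1, 0.13 for Atg7 and 0.27 for Mocs3.

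Since UBA2 works with SAE1 and UBA3 with NAE1, the log2 ratio of the TPM of each pair was compared between groups by a two-sided exact permutation test, in 8 tests adjusted together. None passed. In Myc-CaP sgUba1 tumors the log2 ratio of Uba3 to Nae1 differed by −0.44, and 7 of 7 tumors lay below all controls (exact permutation p = 0.0167, adjusted 0.0762). In OE tumors it differed by −0.40, in 4 of 4 tumors below all EV tumors (exact permutation p = 0.0286, the smallest p that 4 against 3 allows, adjusted 0.0762). The log2 ratio of Uba2 to Sae1 differed by −0.22 in Myc-CaP sgUba1 tumors, with 6 of 7 below all controls (exact permutation p = 0.0250, adjusted 0.0762). In OE tumors that ratio differed in the other direction, by 0.16, with 3 of 4 above all EV tumors (exact permutation p = 0.114, adjusted 0.183). In B16-BL6 the differences were −0.11 for Uba2 to Sae1, with 4 of 4 sgUba1 tumors below all controls (exact permutation p = 0.0857, adjusted 0.171), and −0.030 for Uba3 to Nae1, and with TAK-243 they were 0.026 and 0.070.

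**Figure D4:**
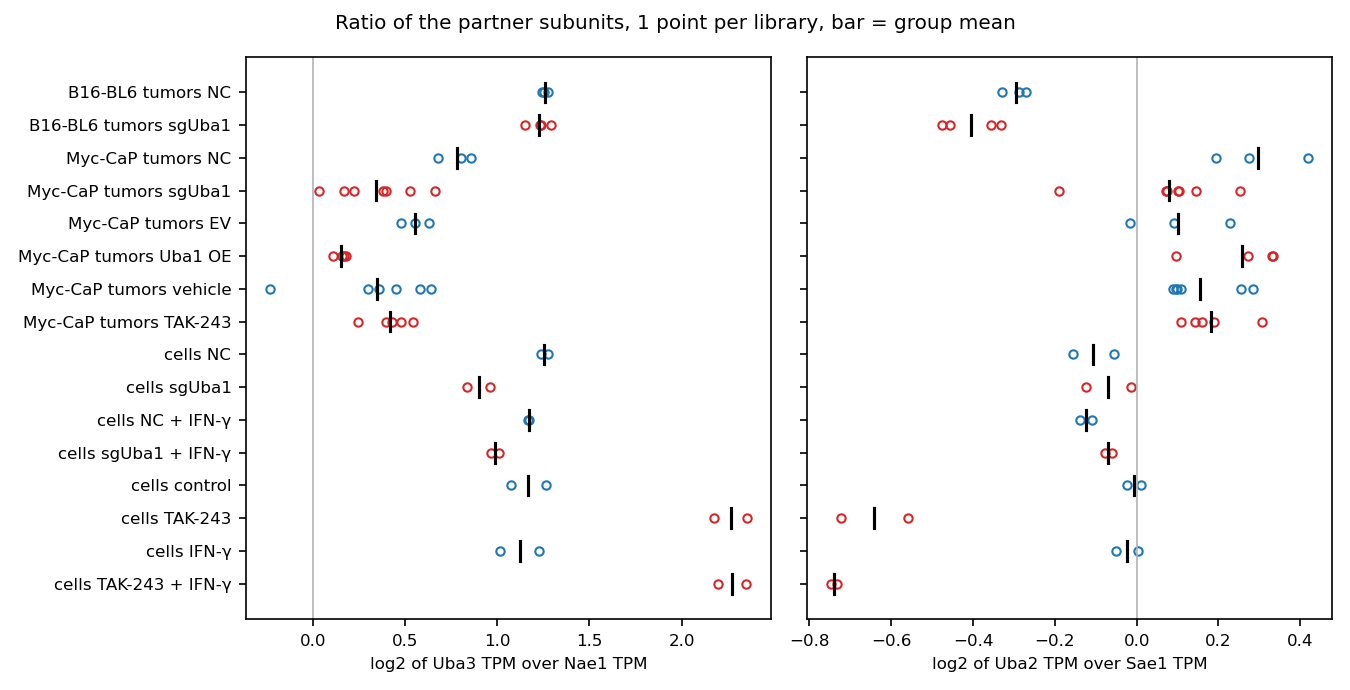
Log2 TPM ratio of Uba2 to Sae1 and of Uba3 to Nae1 in every library of the 16 groups, with control groups in blue, the compared groups in red and a bar at each group mean. Cells given TAK-243 have the highest Uba3 to Nae1 ratios, at a mean of 2.27 on the log2 scale with and without IFN-γ, and the lowest Uba2 to Sae1 ratios.

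In cultured Myc-CaP cells the sgUba1 libraries had lower Uba1. It stood at 533 and 525.6 CPM in NC cells and 295 and 283 CPM in sgUba1 cells, a log2 fold change of −0.87 (SE 0.046) with an adjusted p of 3.71e-07 by edgeR (quasi-likelihood test, Benjamini-Hochberg). With IFN-γ in both arms it stood at 585 and 599.7 CPM in NC and 269 and 275 CPM in sgUba1 cells, a log2 fold change of −1.13 (SE 0.046, edgeR Benjamini-Hochberg adjusted p 5.06e-08). All sgUba1 libraries lay below all NC libraries. The only other call was Uba3, at 127 and 121 CPM in NC and 104 and 108 CPM in sgUba1 cells without IFN-γ, where it fell by 0.23 on the log2 scale (SE 0.047, edgeR Benjamini-Hochberg adjusted p 0.00328). With IFN-γ the log2 fold change of Uba3 was −0.070. In all, 2 of 8 E1 genes were called without IFN-γ, against 29.7% of 15530 genes, and 1 of 8 with it, against 39.4%, so that the share of E1 genes called was not above that of all genes.

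Uba6 in these cells was at 79.7 and 82.2 CPM in NC and 75.0 and 78.7 CPM in sgUba1 libraries, a log2 fold change of −0.075 (interval −0.18 to 0.031). With IFN-γ it was at 79.1 and 81.6 CPM in NC and 88.2 and 83.7 CPM in sgUba1 libraries, at 0.096 (interval −0.0085 to 0.20). Both intervals hold 0, and the upper bounds are 1.02-fold and 1.15-fold. The value with IFN-γ passed the threshold when 1 sgUba1 library was left out, at 0.15 (edgeR Benjamini-Hochberg adjusted p 0.0428) without sgUba1 library 2 and at 0.18 (adjusted p 0.0453) without sgUba1 library 2 with IFN-γ, while on the log2(TPM + 1) scale it was −0.012. Nae1 had log2 fold changes of 0.12 and 0.11 without and with IFN-γ, neither called, Uba2 of 0.065 and −0.039, Sae1 of 0.027 and −0.078, and Atg7 of 0.011 and −0.13. Mocs3 had the largest differences after Uba1, from 1.33 and 1.21 CPM to 0.592 and 0.846 CPM without IFN-γ, at −0.81 (SE 0.291, edgeR Benjamini-Hochberg adjusted p 0.0568), and −0.68 (adjusted p 0.0731) with it. Without IFN-γ it passed the threshold when the low-count filter was left out (adjusted p 0.0473 by edgeR) and on log2(TPM + 1) (adjusted p 0.0435 by limma), and with IFN-γ on log2(TPM + 1) (adjusted p 0.0458 by limma). Among the 92 tested neighbours of Mocs3 within 5 Mb on chromosome 2, 41 were called lower without IFN-γ, against 13.5% of all placed genes, and 54 with IFN-γ, against 22.3%. Among the 26 neighbours of Uba3, 10 were called lower without IFN-γ. Such windows were computed for each E1 gene in every comparison. For cells only these 2 are reported, chosen with the values already seen. The part of a regional change in the Mocs3 and Uba3 values was not tested.

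TAK-243 on cultured Myc-CaP cells changed most of the E1 genes, in both directions. Without IFN-γ, 6 of 8 were called, against 66.3% of 14551 genes. The 4 higher and 2 lower E1 genes compare with 32.3% higher and 34% lower among all genes. With IFN-γ 7 of 8 were called, against 68.2%, of which 4 were higher and 3 lower, against 32% and 36.2%. The share of E1 genes called was thus near that of all genes. Uba1, the target, stood at 452 and 445 CPM in controls and 594 and 565 CPM with TAK-243, a log2 fold change of 0.37 (SE 0.030, edgeR Benjamini-Hochberg adjusted p 5.68e-12). Uba6 rose from 66.1 and 64.9 CPM to 97.7 and 103.7 CPM, at 0.62 (SE 0.050, edgeR Benjamini-Hochberg adjusted p 4.07e-12). Both genes were higher in both treated libraries than in either control. With IFN-γ the log2 fold changes were 0.20 for Uba1 and 0.68 for Uba6, and the difference between the 2 genes was not tested.

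The subunits of each heterodimeric E1 moved in opposite directions with TAK-243. Uba3 rose from 126.3 and 126.2 CPM to 216 and 215 CPM, a log2 fold change of 0.77 (SE 0.035, edgeR Benjamini-Hochberg adjusted p 4.85e-18), while Nae1 went from 40.6 and 46.1 CPM to 32.5 and 36.7 CPM, at −0.33 (SE 0.086, adjusted p 0.00112 by the same edgeR test). The Uba3 to Nae1 ratio of TPM accordingly went from 2.25 to 4.81, and from 2.18 to 4.83 with IFN-γ. Uba2 fell from 201 and 204 CPM to 152 and 151 CPM, at −0.42 (SE 0.036, edgeR Benjamini-Hochberg adjusted p 1.37e-11), while Sae1 rose from 139 and 146 CPM to 158 and 175 CPM, at 0.22 (SE 0.046, adjusted p 0.000102 by the same edgeR test). The Uba2 to Sae1 ratio of TPM went from 0.996 to 0.641, and from 0.984 to 0.599 with IFN-γ. The Sae1 call was lost without TAK-243 library 2, at 0.10 (edgeR Benjamini-Hochberg adjusted p 0.0622). With IFN-γ, where Sae1 was at 0.15, it was lost without the first library given IFN-γ alone (adjusted p 0.225). These ratios were not tested in cells, where each group has 2 libraries.

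Atg7 was at 12.8 and 14.2 CPM in controls and 12.3 and 11.3 CPM with TAK-243, at −0.19 (interval −0.45 to 0.059). With IFN-γ it was at 15.1 and 13.7 CPM without the drug and 10.5 and 12.6 CPM with it, at −0.31 (edgeR Benjamini-Hochberg adjusted p 0.0260), a call that DESeq2 did not make (adjusted p 0.163) and whose direction turned on the log2(TPM + 1) scale, at 0.26. It was also lost without the first library given IFN-γ alone and without the first given both, at adjusted p-values of 0.158 and 0.258 by edgeR's Benjamini-Hochberg adjustment. Mocs3 was at 0.642 to 1.06 CPM in these 4 libraries without IFN-γ, and its interval of −1.41 to 0.56 leaves its direction undetermined at this depth. Uba2, Uba3, Uba6 and Nae1 kept their direction with IFN-γ, at log2 fold changes of −0.55, 0.79, 0.68 and −0.35. The call of Nae1 with IFN-γ was lost on both TPM scales, at −0.19 and −0.20 (limma adjusted p 0.124 and 0.122).

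**Figure D5:**
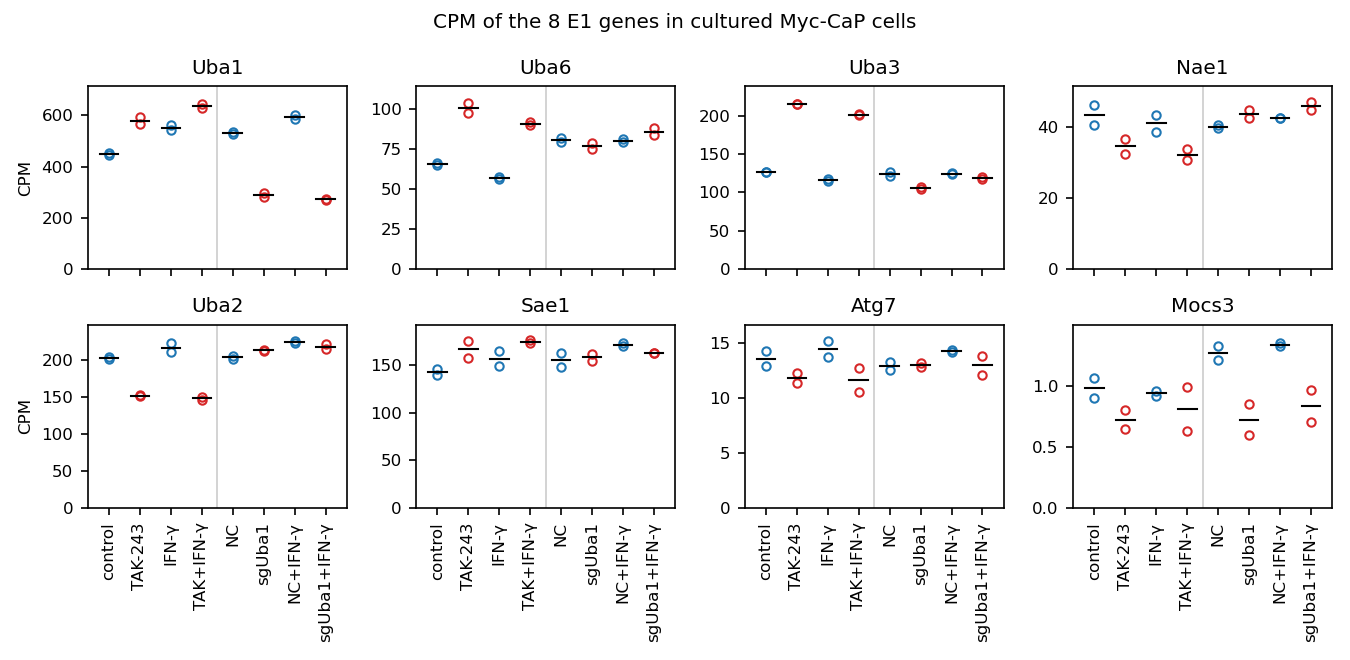
CPM of the E1 genes in every library of cultured Myc-CaP cells, by group, with a line at each mean. With TAK-243, Uba6 and Uba3 stand above their controls and Uba2 and Nae1 below them, both with and without IFN-γ.

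The modifiers and E2 enzymes on either side of the E1 step were counted in the same fits. In TAK-243 cells without IFN-γ, 12 of 17 tested modifier genes were higher and 3 lower, against 32.3% and 34% of all genes, with a median log2 fold change of 0.33 against 0.027 over all genes. The 3 largest increases were in substrates of ATG7, with log2 fold changes of 1.46 for Atg12, 1.37 for Map1lc3b and 1.30 for Gabarapl2. Sumo2 fell by 0.21, Nedd8 rose by 0.27, and the ubiquitin gene Ubb was at −0.072. Of 7 E2 genes charged by an E1 other than UBA1 alone, 4 were higher and 2 lower, against the same shares of all genes. Ube2z, the E2 of UBA6, rose by 0.80. The NEDD8 E2 genes split, with Ube2f at 0.49 and Ube2m at −0.53. Atg3, the E2 that receives LC3 from ATG7, was at −0.84. Of 24 tested E2 genes charged by UBA1, 15 were higher and 3 lower, also against 32.3% and 34%, among them Ube2h at 1.81, Ube2w at 1.03 and Ube2a at 0.90.

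In sgUba1 cells without IFN-γ, 1 of 17 modifier genes was higher and 3 lower, 1 of 7 E2 genes of the other E1 enzymes was higher, and of the 24 E2 genes of UBA1 7 were higher and 4 lower, against 16.2% higher and 13.6% lower among all genes. Ube2e1, one of those E2 genes, had the largest increase at 0.72, and Ube2c, which works with the anaphase-promoting complex, was at −0.65. Urm1, the substrate of MOCS3, was at −0.30, and at −0.64 with IFN-γ. In each of the 4 tumor comparisons 0 of the 48 tested genes of these lists were called by edgeR, and DESeq2 called at most 2, with medians of the lists between −0.10 and 0.12. Those with an unadjusted p under 0.05 were 6 of 48 in B16-BL6 sgUba1 tumors against 16.3% of all genes, 9 in Myc-CaP sgUba1 tumors against 23.7%, 4 in OE tumors against 18.2% and 9 in TAK-243 tumors against 15%.

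IFN-γ had smaller effects on the E1 genes. In NC cells 0 of 8 were called by edgeR and DESeq2, against 3.88% of genes by edgeR, and 3 of 8 had an unadjusted p under 0.05, against 23% of genes. Uba1 went from 533 and 525.6 CPM to 585 and 599.7 CPM, a log2 fold change of 0.16 (edgeR Benjamini-Hochberg adjusted p 0.0716). In drug-control cells 5 of 8 were called, against 29%: Uba1 at 0.30, Uba2 at 0.098 and Sae1 at 0.14 were higher, and Uba6 at −0.20 and Uba3 at −0.12 lower. Uba6 stood at 66.1 and 64.9 CPM without and 56.6 and 57.3 CPM with IFN-γ, so the groups did not overlap. On the TPM scale the median of all genes in this comparison shifted by −0.14, and Uba2 at −0.11 and Sae1 at −0.097 turned negative, so that their directions are relative to the scaling. Uba1 kept its direction there and lost its call, at 0.066 and 0.067 for pseudocounts of 1 and 0.1 (limma adjusted p 0.303 and 0.304). With 1 library left out at a time, 2 to 4 of the 8 were called, and Uba1 was called in each of these 8 fits by edgeR. In the edgeR test of the difference between the effects of TAK-243 with and without IFN-γ, 1 of 8 E1 genes was called, against 2.38% of genes. It was Uba1, at −0.17 (edgeR Benjamini-Hochberg adjusted p 0.0292), and the call was lost with RLE factors, on the log2(TPM + 1) scale, where the value was 0.015, and in 6 of 8 fits that left out 1 library, where the lowest adjusted p among the 6 was 0.0507 without the first control and the highest 0.467 without the second library given both. For sgUba1 the same difference gave 0 calls by edgeR, against 4.64% of genes, 3 of 8 at an unadjusted p under 0.05 against 21.5% of genes, and 1 by DESeq2, Uba1, at −0.23.

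Of the E1 genes outside the 8, Uba7, the ISG15 E1, ran from 0.0968 to 14.5 TPM over all libraries and was below 1 TPM in cells without IFN-γ. It rose with IFN-γ by 1.94 on the log2 scale in NC cells, from 6 counts in each library without it to 25 and 29 with it, and by 2.05 in drug-control cells, and was 2.55-fold higher in sgUba1 than in NC cells, and 3.99-fold higher with IFN-γ. Uba1y made up 0.0505% to 1.03% of the summed counts of Uba1 and Uba1y, and reads of these homologous genes may have been split between them by the counting.

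For each gene, the genes most like it were found by Pearson correlation of log2 CPM over 51 libraries, after the mean of each experiment was removed, among 13153 genes. The libraries share depth, tumor composition and treatment, so these values describe and were not tested. Sae1 was most like Nasp (0.93), a histone chaperone, Rcc1 (0.92) and Alyref (0.90). Uba2 was most like Cnot9 (0.91), Usp1 (0.91) and Gars (0.90), and Uba2 and Sae1 correlated with each other at 0.69 over 51 libraries and 0.90 over the 35 tumors. Uba3 was most like Ppp4r2 (0.97), a regulatory subunit of protein phosphatase 4, which lies 3.63 Mb from it, and Arl6ip5 (0.87), which lies 0.00504 Mb from it. Uba3 and Nae1 correlated at 0.054 over all libraries and 0.54 over tumors. Uba6 was most like Sugt1 (0.87) and Gpbp1 (0.86), Nae1 like Gtf2a2 (0.82), Uba1 like Gnb2 (0.78), and Atg7 like Sumf1 (0.78), which lies 6.46 Mb from it on chromosome 6. Mocs3 had no gene above 0.48. Uba1 and Uba6 correlated at 0.31 over all libraries and 0.49 over tumors.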

How the data were processed

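RNA of 51 libraries was analysed as the deposited tables hold it. The authors quantified reads with kallisto (version and annotation not given in the sources used here) against mm10. The deposited expected counts and TPM are per gene, and the sources name both ribosomal RNA removal and poly-A selection. Expected counts were rounded to whole numbers, low genes were removed with filterByExpr, and edgeR 4.0.16 (R 4.3.3) quasi-likelihood tests with TMM factors and Benjamini-Hochberg adjustment were run over all genes within each of 6 experiments. CPM use TMM factors. DESeq2 1.42.0, RLE factors, no filter, a replicate block, limma 3.58.1 on log2(TPM + 1) and log2(TPM + 0.1), other sets of libraries and leaving out each library were the alternatives. Partner ratios were compared by exact permutation tests. Scripts were tested on simulated data. No pair of replicates held identical values, among 75 pairs, and their chi-square per degree of freedom was at least 1.81. The E1 genes, gene lists and tests were chosen with earlier results of these data known. Named genes were the 8 E1 genes, the members of the pathway lists and, per E1 gene, the 3 with the highest correlation. Some members of these lists are counted but not reported here by name. Guide sites were placed on GENCODE M21 transcripts. Intervals on counts cover the spread between libraries only.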

Additional observations from a re-analysis of the deposited data

Results flagged for a closer look

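Nae1 differed in opposite directions in Myc-CaP sgUba1 tumors and sgUba1 cells. The mean log2 difference from the controls was −0.26 in tumors, where 7 of 7 were lower, and 0.12 in cells, where 2 of 2 were higher. The difference between tumors and cells was not tested, and neither change was called by itself.

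Sae1 likewise differed under TAK-243, at a mean log2 difference of −0.39 in tumors and 0.22 in cells, where 5 of 5 tumors lay below the vehicle mean and 2 of 2 treated cell libraries above the control mean. This difference was not tested either.

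The effect of TAK-243 on Uba1 in cells was smaller with IFN-γ than without, by −0.17 on the log2 scale (edgeR Benjamini-Hochberg adjusted p 0.0292), a call that was lost with RLE factors, on the TPM scale and in 6 of 8 fits without 1 library.

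Atg7 in sgUba1 tumor 7 of Myc-CaP stood at 22.4 CPM, while the other 6 sgUba1 tumors stood at 17.3 to 18.8 CPM. The gap to the nearest tumor was 0.697 of the whole range. Of 40 groups of values examined for such a gap, chance alone flags about 1 in 20.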

How the results depend on the processing

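Of 1689 comparisons of a value or count with an alternative, 1482 kept the direction and the side of the threshold, 64 fell below the threshold, 34 passed it and 109 changed sign. Uba1 kept its direction and its call under all alternatives in B16-BL6 sgUba1 tumors and in sgUba1 cells with and without IFN-γ, and so did Uba6, Uba3 and Uba2 in TAK-243 cells with and without IFN-γ. The cause was not tested for any change below. What limits the values is the 2 libraries per group in cells, the 3 controls in most tumor groups, and the 4 to 167 counts of Mocs3.

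The count of E1 genes called became 1 (Uba3) in Myc-CaP sgUba1 tumors with DESeq2 and with 17 tumors in 1 fit, and 0 in OE tumors in that fit. It became 2 (Uba1 and Mocs3) in sgUba1 cells with IFN-γ on log2(TPM + 1), 1 (Uba1) in NC cells given IFN-γ without the low-count filter, and 1 (Uba1) in the interaction of sgUba1 and IFN-γ with DESeq2 or without that filter. In drug-control cells given IFN-γ it became 2 with DESeq2 (Uba1 and Uba6) and on both TPM scales (Uba6 and Uba3, without Uba1) and 3 with only the 4 libraries compared. In the interaction of TAK-243 and IFN-γ it became 0 with RLE factors and on both TPM scales.

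Replicate numbers did not pair the samples: same-numbered libraries correlated, after group means were removed, at −0.18 to 0.31 over tumor pairs and −0.019 to 0.074 over cell pairs. With the replicate block the count of E1 genes called was 0 in OE tumors and 1 (Uba1) in the interaction of sgUba1 and IFN-γ, and no other count of E1 genes called moved by over 1.5 times. Over all genes the block moved the calls from 492 to 2 in Myc-CaP sgUba1 tumors, from 4 to 0 in OE tumors and from 25 to 8 in TAK-243 tumors. In the block, a tumor whose number has no partner in the other group adds nothing to the comparison. These were Myc-CaP sgUba1 tumors 4 to 7, B16-BL6 sgUba1 tumor 3, OE tumor 4 and vehicle tumor 6. The block fits of tumors therefore also rest on fewer tumors than the main fits.

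Calls over all genes also moved with 1 library left out: from 127 to between 43 (without sgNC tumor 1) and 320 (without sgUba1 tumor 4) in B16-BL6 sgUba1 tumors, from 492 to between 10 and 692 in Myc-CaP sgUba1 tumors, from 4 to between 0 (without EV tumor 2 or 3) and 386 (without OE tumor 1) in OE tumors, from 25 to between 1 (without vehicle tumor 1) and 299 (without TAK-243 tumor 5) in TAK-243 tumors, from 603 to between 35 (without the second NC library given IFN-γ) and 2721 (without the first NC library) in NC cells given IFN-γ, from 4618 to as few as 2932 (without sgUba1 library 2) in sgUba1 cells, from 720 to between 14 and 2622 in the interaction of sgUba1 and IFN-γ (without the second NC library with and without IFN-γ), and from 347 to as few as 85 (without the second library given both) in that of TAK-243 and IFN-γ. They moved with the tool too. DESeq2 made 534 calls against 127 by edgeR in B16-BL6 sgUba1 tumors, 1862 against 492 in Myc-CaP sgUba1 tumors, 707 against 4 in OE tumors, 544 against 25 in TAK-243 tumors, 395 against 603 in NC cells given IFN-γ, 2617 against 4216 in drug-control cells given IFN-γ and 230 against 347 in the interaction of TAK-243 and IFN-γ. Without the low-count filter, edgeR made 204, 33 and 45 calls in B16-BL6 sgUba1, OE and TAK-243 tumors, 1460 in NC cells given IFN-γ and 1487 in the interaction of sgUba1 and IFN-γ, where the filtered fit made 720. With RLE factors those last 2 had 292 and 414 calls. On log2(TPM + 1) and log2(TPM + 0.1), limma made 254 and 303 calls in Myc-CaP sgUba1 tumors, 1 in OE tumors, 2618 and 2627 against 4618 in sgUba1 cells, 4037 against 6119 with IFN-γ (pseudocount 1), 18 and 30 in NC cells given IFN-γ, and 12 and 4 in the interaction of sgUba1 and IFN-γ and 1 in that of TAK-243 and IFN-γ. With only the 4 libraries compared, NC cells given IFN-γ had 30 calls, and 17 tumors in 1 fit gave 1406 calls in Myc-CaP sgUba1 tumors and 0 in OE tumors.

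On the TPM scale, tested with limma on log2(TPM + 1) and log2(TPM + 0.1), these log2 differences had the opposite sign (where 1 value is given, it holds for both pseudocounts). In B16-BL6 sgUba1 tumors they were Uba6 0.057 and 0.061, Uba3 0.00050, Sae1 0.031, Nae1 0.029 and 0.030, Atg7 0.029 and 0.030 and Mocs3 0.018 and 0.021. In TAK-243 tumors they were Uba1 0.013 and Uba6 0.049 and 0.051. In sgUba1 cells they were Atg7 −0.18 and −0.19. In sgUba1 cells with IFN-γ they were Uba6 −0.012 and Atg7 0.032 and 0.033. In TAK-243 cells with IFN-γ they were Atg7 0.26 and 0.27. In NC cells given IFN-γ they were Uba3 −0.079 and −0.080, Atg7 −0.23 and −0.25 and Mocs3 −0.0033 and −0.0056. In drug-control cells given IFN-γ they were Uba2 −0.11, Sae1 −0.097 and Atg7 −0.42 and −0.45. In the interaction of sgUba1 and IFN-γ they were Atg7 0.21 and 0.22. In the interaction of TAK-243 and IFN-γ they were Uba1 0.015, Uba2 0.041, Sae1 0.12, Nae1 0.15 and Atg7 0.40 and 0.43. On this scale the median of all genes was −0.14 in drug-control cells given IFN-γ, 0.12 in TAK-243 cells with IFN-γ and 0.11 in the interaction of TAK-243 and IFN-γ. Opposite signs with the replicate block, which leaves tumors without a same-numbered partner out of the comparison, were Sae1 0.039 and Nae1 0.0083 in B16-BL6 sgUba1 tumors and Uba2 0.17 in Myc-CaP sgUba1 tumors. Opposite signs under DESeq2 were Uba3 −0.015 in NC cells given IFN-γ and Nae1 0.0082 in the interaction of sgUba1 and IFN-γ. Opposite signs under RLE factors were Uba3 −0.015 in NC cells given IFN-γ, Nae1 0.0082 in the interaction of sgUba1 and IFN-γ and Nae1 0.0019 in the interaction of TAK-243 and IFN-γ. Opposite signs in a fit of only the 4 libraries compared were Uba3 −0.035 in NC cells given IFN-γ.

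With 1 library left out at a time, the count of E1 genes called ran from 0 to 1 in Myc-CaP sgUba1 tumors, 0 to 1 in OE tumors, 1 to 3 in sgUba1 cells with IFN-γ, 0 to 3 in NC cells given IFN-γ, 2 to 4 in drug-control cells given IFN-γ, 0 to 2 in the interaction of sgUba1 and IFN-γ and 0 to 1 in the interaction of TAK-243 and IFN-γ. In TAK-243 cells the count ran from 5 to 6, and from 5 to 7 with IFN-γ. Values that crossed 0 ran, over these fits, in B16-BL6 sgUba1 tumors, Uba6 −0.059 to 0.021, Sae1 −0.075 to 0.033, Nae1 −0.056 to 0.0014, Atg7 −0.034 to 0.015 and Mocs3 −0.14 to 0.055, and in Myc-CaP sgUba1 tumors, Uba2 −0.099 to 0.030, and in TAK-243 tumors, Nae1 −0.0076 to 0.060, log2 Uba2 to Sae1 ratio −0.0048 to 0.052 and log2 Uba3 to Nae1 ratio −0.047 to 0.13, and in sgUba1 cells, Sae1 −0.040 to 0.097 and Atg7 −0.043 to 0.051, and in sgUba1 cells with IFN-γ, Uba2 −0.050 to 0.029 and Atg7 −0.19 to 0.013, and in TAK-243 cells with IFN-γ, Mocs3 −0.58 to 0.059, and in NC cells given IFN-γ, Uba6 −0.053 to 0.015 and Uba3 −0.042 to 0.039, and in drug-control cells given IFN-γ, Nae1 −0.17 to 0.014 and Mocs3 −0.17 to 0.067, and in the interaction of sgUba1 and IFN-γ, Nae1 −0.032 to 0.071, Atg7 −0.19 to 0.0055 and Mocs3 −0.069 to 0.46, and in the interaction of TAK-243 and IFN-γ, Uba3 −0.00090 to 0.074, Sae1 −0.14 to 0.049, Nae1 −0.11 to 0.11, Atg7 −0.22 to 0.051 and Mocs3 −0.11 to 0.54.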
